A study of Mus musculus with 8 samples.

Results

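The cell adhesion and extracellular matrix genes described here are 100 of the 5736 genes in the table. They were chosen by a pattern of symbols: integrins, cadherins and protocadherins, claudins, connexins, catenins, Cadm and nectin genes, laminins, collagens, fibulins and thrombospondins, the Adam, Adamts and Mmp proteases, the Timp inhibitors and tetraspanins. Cldn11 and Tspan8 carry such symbols but were left out by name. The symbol pattern also took Col4a3bp, which encodes a ceramide transfer protein and no collagen, and Itgb1bp2, which encodes a cytoplasmic integrin-binding protein of striated muscle. Between 34.0 and 34.4% of a library's reads fell in these 5736 genes, so these families are represented only by the members in the table, and other family members were not analysed here.

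mRNA was sequenced from germ cells of CD1:Uchl1-eGFP mice, a Uchl1 promoter line on a C57BL/6 background that was outcrossed to CD-1. The promoter drives EGFP in spermatogonia, and EGFP+ cells were sorted from pooled testes, so each library is an average over many animals and cells. All mice, the Aal controls included, received oral bis-(dichloroacetyl)-diamine, an inhibitor of retinoic acid (RA) synthesis that holds spermatogonia undifferentiated, at 100 µg/g of body weight from P1. Aal (2 libraries) are these arrested undifferentiated spermatogonia. A1 (3 libraries) and A3 (3 libraries) are early and mid differentiating spermatogonia that followed a single subcutaneous injection of 10 µl RA at 10 µg/µl on P11; A1 was collected on the next day, and the labels used here give no collection day for A3. The comparisons ask how adhesion and matrix mRNAs changed as spermatogonia left the undifferentiated state and advanced.

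Spermatogonia sit on the basement membrane of the seminiferous tubule, a sheet of laminin and collagen IV that they contact through integrins. Cadherins and nectins join neighbouring cells through catenins, connexins form gap junction channels with Sertoli cells, and claudins belong to the tight junctions that Sertoli cells build between them. Secreted proteases of the Adamts and Mmp families remodel the matrix, and Timp proteins inhibit them.

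Library totals, rebuilt from the steps between FPKM values, ran from 18276164 to 27316451 reads. The germ cell markers Dazl and Uchl1 lay between 303 and 437 FPKM and between 4048 and 7270 FPKM across the 8 libraries, and Tex101 between 129 and 203 FPKM. Of the other germ cell markers in the table, Nanos3, known from undifferentiated spermatogonia, fell from 91.4 and 112 FPKM in Aal to between 12.2 and 21.7 FPKM in A1 and A3, and Sohlh2, a transcription factor of early differentiation, rose from 32.7 and 34.9 FPKM to between 65.8 and 83.3 FPKM, both called from Aal to A1 and to A3. The third A1 library, A1-3, stood apart. Its Sertoli cell markers (13 of 28 in the table) summed to 460.1 FPKM, against 66.2 and 67.4 FPKM in A1-1 and A1-2 and 43.2 to 60.8 FPKM in Aal, and the A3 libraries were also high, at 237 to 438 FPKM. Markers of stroma (3 of 8 in the table), Leydig cells (3 of 7) and macrophages (3 of 13) were highest in A1-3 alone, at 34.2, 8.80 and 10.47 FPKM against at most 5.67, 2.08 and 1.63 FPKM elsewhere. Myoid markers (3 of 7) summed to 6.53 FPKM in A1-3 and to at most 3.36 FPKM elsewhere, and endothelial markers (4 of 8) stayed between 1.71 and 3.46 FPKM in all 8 libraries. Members raised over 2 times in A1-3 are therefore given with and without it in some comparison with A1, where both fits tested them. The counts of calls are given both ways.

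Members were low compared with the table as a whole. The median of their mean levels was 1.09 FPKM, against 5.93 FPKM over all genes. Only 8 members averaged at least 10 FPKM, 43 lay between 1 and 10 FPKM and 49 lay under 1 FPKM. The members rested on 1 to 6969 reads per library, with a median of 99.5 reads, and 24 of them had fewer than 10 reads in some library. The most abundant were Cadm1, an immunoglobulin adhesion molecule (37.8 FPKM), Ctnnd1, the p120 catenin that stabilises cadherins at the membrane (31.3 FPKM), Col5a1, a fibril collagen chain (27.7 FPKM), and Cldn12, a claudin (21.6 FPKM). None of these 4 was called in any comparison. Cadm1 ran from 35.0 to 41.6 FPKM and Ctnnd1 from 29.3 to 34.3 FPKM across the 8 libraries.

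**Figure D1:**
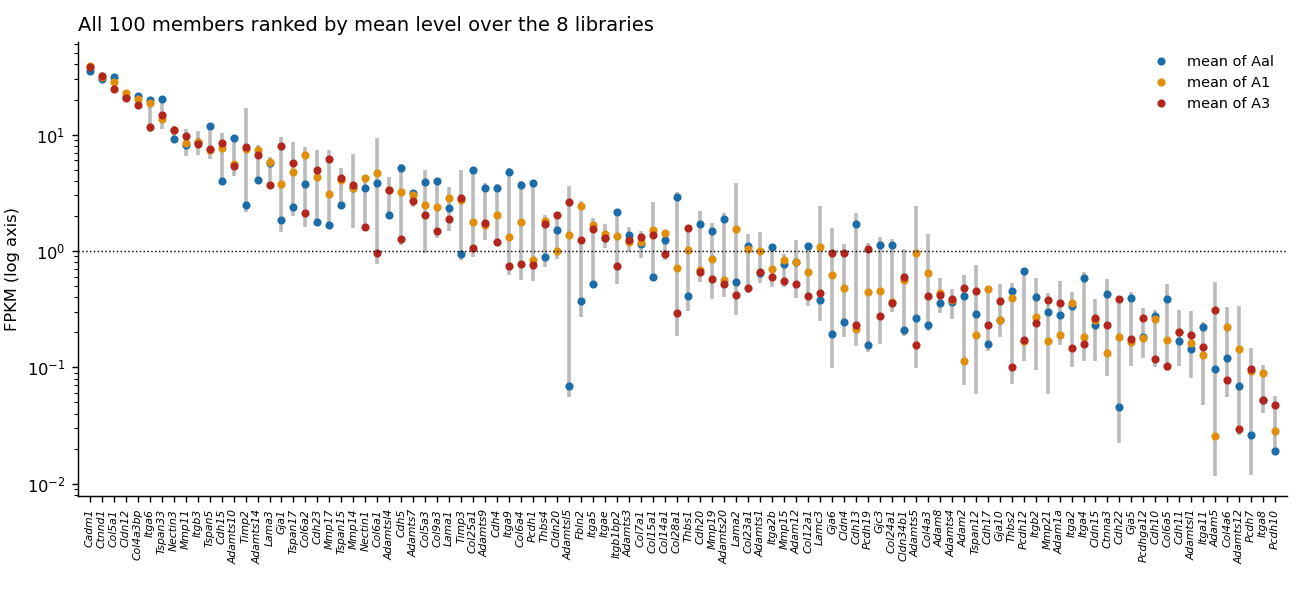
Level of each of the 100 members in FPKM on a log axis, ranked by its mean over the 8 libraries, with group means as points (Aal blue, A1 orange, A3 red) and the range over the libraries as grey bars. Only 8 members average at least 10 FPKM, and long bars such as those of Timp2, Col6a1, Lama2 and Adamtsl5 mark the members that varied most.

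Differences were tested with limma on log2(FPKM + 1), over all genes with at least 1 FPKM in at least 2 of the libraries compared. A gene was called at an adjusted p of at most 0.01 and a log2 difference above 1 in size. The added 1 makes these differences smaller than the true fold for low genes. Of the 100 members, 60 were tested in some comparison, 40 in none, and 18 were called in some comparison. The libraries are 2 or 3 separate cell preparations per group, per the study's methods. Each p-value sets a difference against the spread between those preparations. In limma that spread is drawn towards the spread of other genes of similar level.

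Between A1 and Aal, 58 members were tested and 7 were called (12.1%), against 9.15% of all genes tested. Higher in A1 were 2 members, against 4.19% of all genes, and lower were 5, against 4.97%. The median log2 difference was -0.00 over the members and 0.03 over all genes. With either Aal library left out, 1 member was called (Itga9 without Aal-1, Fbln2 without Aal-2). In those fits Pcdh1, Col28a1 and Cdh13 did not pass the filter, and Adamtsl5 (adjusted p = 0.037 and 0.0464) and Col25a1 (0.0108 and 0.0126) missed the threshold. Without A1-3, the log2 differences of the 6 called members still tested moved by at most 0.0751, and all 6 were called. Between A3 and A1, 52 members were tested and 2 were called, both lower (3.85%), against 1.5% of all genes in either direction, 0.479% higher and 1.02% lower. An unadjusted p under 0.05 was reached by 22 of the 52 members (42.3%), against 34.0% of all genes. From Aal to A1 it was 31 of 58 (53.4%, against 49.7%) and from Aal to A3 43 of 58 (74.1%, against 62.1%). Between A3 and Aal, 58 were tested and 15 were called (25.9%), against 17.6% of all genes. Of these, 5 were higher, against 7.87%, and 10 were lower, against 9.69%. The median log2 difference from Aal to A3 was -0.19 over the members and 0.05 over all genes. The 3 comparisons share libraries, so their counts are not independent. Some members passed the filter only through the group in which they were high. Between A1 and Aal, 5 passed through A1 and 7 through Aal. Between A3 and A1 it was 1 and 4, and between A3 and Aal it was 6 and 11. Such members were tested only because they were high in 1 group, and the shares above include them. They make up 5 of the 7 calls from Aal to A1 (Adamtsl5, Fbln2, Cdh13, Pcdh1 and Col28a1), 0 of 2 from A1 to A3 and 6 of 15 from Aal to A3 (Adamtsl5, Cdh13, Pcdh1, Col28a1, Col6a4 and Itga9). Among members with at least 1 FPKM in some library of both groups, 2 of 46 were called from Aal to A1 (4.35%, against 8.11% of all such genes), 2 of 47 from A1 to A3 (4.26%, against 1.43%) and 9 of 41 from Aal to A3 (22.0%, against 15.1%).

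**Figure D2:**
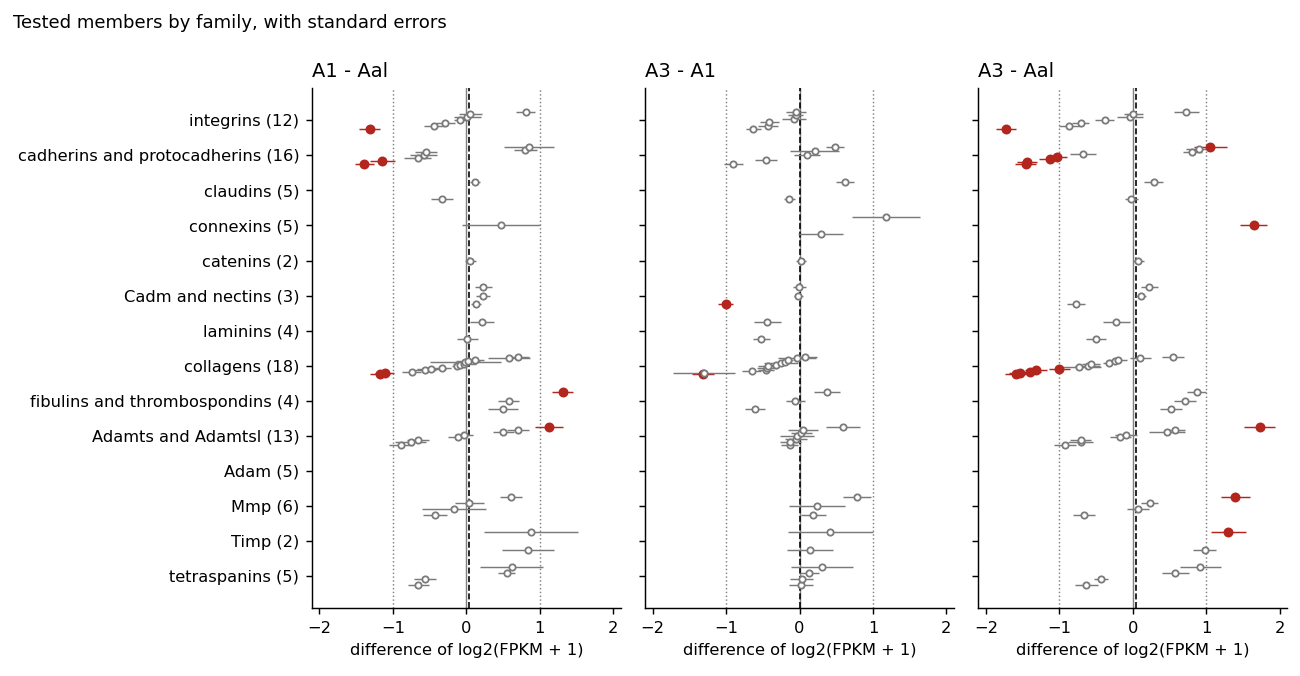
Difference of log2(FPKM + 1) between groups for every tested member, by family (number of members in brackets), with standard errors. Filled red points are called, open points are not, dotted lines mark a difference of 1 in size and the dashed line is the median over all genes. Called members lie on the lower side for integrins and collagens and on both sides for cadherins from Aal to A3.

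Cadherins and protocadherins are calcium-dependent adhesion receptors. The family had 16 members, of which 8 were tested between A3 and Aal. Of these, 1 was called higher and 4 were called lower, against 7.87 and 9.69% of all genes. Among the lower ones, Pcdh1 and Cdh13 passed the filter only through Aal, where they were high. Pcdh1, a protocadherin of epithelial and neuronal cell contacts (chr18:38345569-38371707, mm9), lay at 3.68 and 3.92 FPKM in Aal, at 0.972, 0.797 and 0.729 FPKM in A1 and at 0.555, 0.803 and 0.903 FPKM in A3. Both Aal libraries were above all 6 others, and A1 and A3 overlapped. The log2 difference was -1.39 from Aal to A1 (SE 0.13, adjusted p = 0.000317) and -1.46 from Aal to A3 (SE 0.14, adjusted p = 7.55e-05). Cdh13, a cadherin anchored by lipid that lacks a cytoplasmic tail (chr8:120807633-121848821), showed the same step at lower levels. It lay at 1.3 and 2.12 FPKM in Aal, at 0.323, 0.168 and 0.154 FPKM in A1 and at 0.283, 0.252 and 0.152 FPKM in A3, again with no overlap between Aal and the rest. Its log2 difference was -1.14 from Aal to A1 (SE 0.17, adjusted p = 0.00161) and -1.13 from Aal to A3 (SE 0.15, adjusted p = 0.000434).

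Cdh5, the VE-cadherin of endothelial cell junctions (chr8:106625525-106668402), fell in steps. Its values were 4.70 and 5.61 FPKM in Aal, 3.15, 2.76 and 3.79 FPKM in A1 and 1.39, 1.27 and 1.12 FPKM in A3, and no 2 groups overlapped. The log2 difference was -1.44 from Aal to A3 (SE 0.14, adjusted p = 7.36e-05). From A1 to A3 it was -0.90 (SE 0.13, adjusted p = 0.00421), which missed the fold threshold. The 4 endothelial markers in the table summed to 3.21 and 3.46 FPKM in Aal, 2.24 to 2.84 FPKM in A1 and 1.71 to 2.28 FPKM in A3. Of these, Kdr, a receptor for VEGF, lay at 1.79 and 2.13 FPKM in Aal and between 0.504 and 0.653 FPKM elsewhere, with log2 differences of -0.92 to A1 (adjusted p = 0.00138) and -0.92 to A3 (adjusted p = 0.000395), under the fold threshold. Kdr passed the filter only through Aal, where it was high. Tek, the angiopoietin receptor, lay between 1.13 and 1.37 FPKM in Aal and A1 and between 0.623 and 0.723 FPKM in A3, with a log2 difference from A1 to A3 of -0.47 (adjusted p = 0.0219). In that comparison Tek passed the filter only through A1. Tie1 and Esam were under 1 FPKM in all libraries. The part of endothelial RNA in the fall of Cdh5 was not tested.

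Cdh4, the retinal cadherin (chr2:179177136-179634078), lay at 3.16 and 3.79 FPKM in Aal, between 1.60 and 2.67 FPKM in A1 and between 1.1 and 1.29 FPKM in A3. Its groups did not overlap, and the log2 difference from Aal to A3 was -1.03 (SE 0.13, adjusted p = 0.00032), or -0.93 without Aal-2. Cdh15, the muscle cadherin, was the highest member of the family at a mean of 7.03 FPKM and its differences had the opposite sign. It lay at 3.99 and 3.91 FPKM in Aal and between 6.52 and 10.3 FPKM in the other 6 libraries, with log2 differences of 0.81 to A1 (SE 0.16, adjusted p = 0.00557) and 0.90 to A3 (SE 0.17, adjusted p = 0.00244). Neither passed the fold threshold.

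Cdh23, a long cadherin known from the tip links of sensory hair cells (chr10:59765496-60159238), was the 1 cadherin called higher. It lay at 1.72 and 1.80 FPKM in Aal, at 2.82, 2.86 and 7.37 FPKM in A1 and at 6.89, 4.33 and 3.5 FPKM in A3. All 3 A3 libraries and A1-3 were above A1-1 and A1-2, which were in turn above Aal. From Aal to A1 the log2 difference was 0.85 (adjusted p = 0.0814), and 0.48 without A1-3 (adjusted p = 0.0221). The log2 difference from Aal to A3 was 1.06 (SE 0.22, adjusted p = 0.00406). The call was lost without Aal-1 or Aal-2 (adjusted p = 0.0335 and 0.0305), without A3-1 (log2 difference 0.83), and in 1 fit on all 8 libraries (adjusted p = 0.0263).

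Nectins are immunoglobulin adhesion molecules, and some of them join germ cells to Sertoli cells. Nectin1 (Pvrl1 in the mm9 annotation, chr9:43552659-43615537) lay at 3.63 and 3.32 FPKM in Aal and at 4.39, 4.16 and 4.19 FPKM in A1. In A3 it was at 1.64, 1.51 and 1.70 FPKM, below all other libraries. A3 did not overlap either group. The log2 difference was -1.01 from A1 to A3 (SE 0.10, adjusted p = 0.00123) and -0.78 from Aal to A3 (SE 0.13, adjusted p = 0.00102), and only the first passed the fold threshold, just inside it. The call was lost without A1-1 (-0.99), without A3-2 (-0.98, adjusted p = 0.0106) and with the replicate number as a block (-1.01, adjusted p = 0.0116). Nectin3, a known binding partner of it and outside the rule for named genes, lay between 8.60 and 11.8 FPKM in all libraries, and its log2 difference from A1 to A3 was -0.00 (adjusted p = 0.996).

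Connexins assemble into gap junction channels. Gja1 (connexin 43, chr10:56097106-56110225), the main connexin between Sertoli cells and spermatogonia, lay at 2.12 and 1.59 FPKM in Aal, at 1.46, 1.71 and 8.12 FPKM in A1 and at 9.52, 8.31 and 6.21 FPKM in A3. A1-1 and A1-2 overlapped Aal, and A1-3 lay inside the range of A3. From Aal to A3 the log2 difference was 1.65 (SE 0.18, adjusted p = 0.000149), and Gja1 was called higher. In 1 fit on all 8 libraries, where the spread within A1 enters, the adjusted p was 0.016. From A1 to A3 it was 1.18 (SE 0.46, adjusted p = 0.117), and without A1-3 it became 1.79 (adjusted p = 0.00157), which passed. Gja6, a related connexin gene tested only between A3 and A1, had 0.287 and 0.0987 FPKM in Aal, 0.186, 0.327 and 1.36 FPKM in A1 and 1.57, 0.887 and 0.393 FPKM in A3. The 3 A3 libraries followed the same order for Gja1, Gja6 and the summed Sertoli markers, with A3-1 highest and A3-3 lowest.

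**Figure D3:**
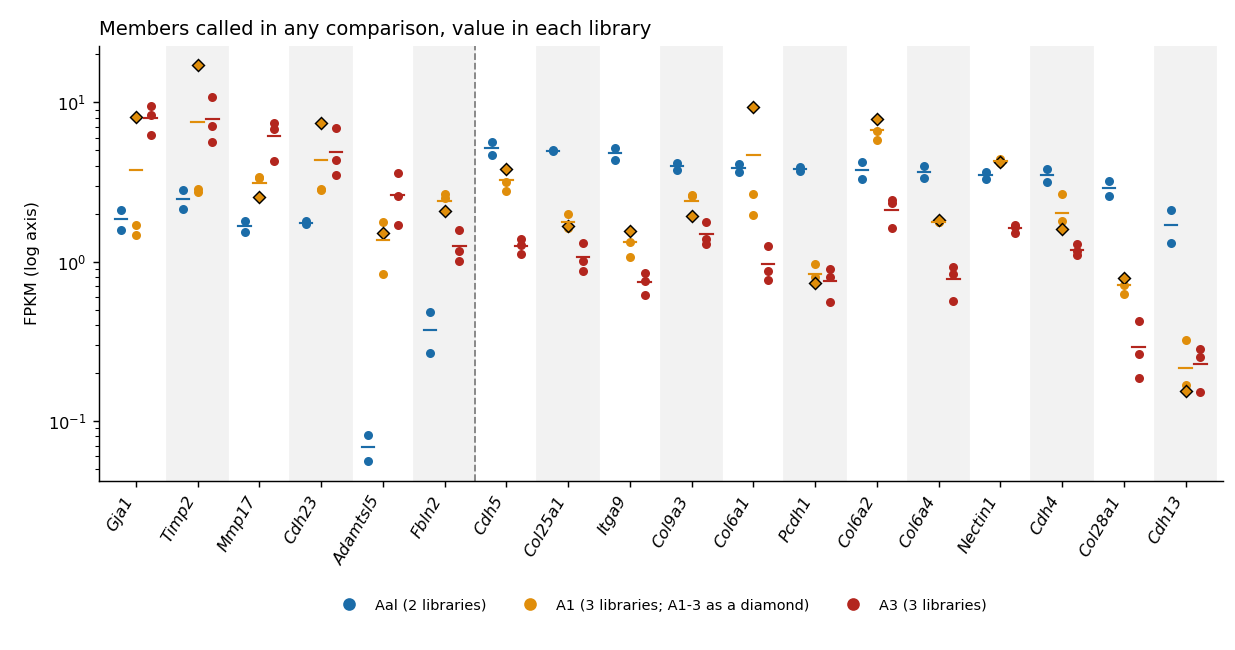
FPKM on a log axis in each library for the 18 members called in any comparison (Aal blue, A1 orange with A1-3 as a diamond, A3 red), with group means as short lines. Members left of the dashed line have a higher mean in A3 than in Aal, and A1-3 stands above the other A1 libraries for Gja1, Timp2, Cdh23 and Col6a1.

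Integrins pair an alpha and a beta chain into receptors for matrix proteins, and 12 members carried an integrin symbol. The sum over these 12 was 36.9 and 42.6 FPKM in Aal, 32.2 to 36.3 FPKM in A1 and 24.8 to 27.3 FPKM in A3, without overlap between the groups. Itga6, the laminin-binding alpha 6 chain used as a surface marker of spermatogonial stem cells, made up the largest share. It lay at 19.1 and 20.2 FPKM in Aal, at 19.2, 16.8 and 19.6 FPKM in A1 and at 13.3, 11.2 and 10.5 FPKM in A3. Aal and A1 overlapped, and all A3 libraries were lower. Its log2 difference was -0.63 from A1 to A3 (SE 0.10, adjusted p = 0.00628), under the fold threshold.

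Itga9, the alpha 9 chain that binds tenascin and osteopontin (chr9:118515808-118810121), changed most among the integrins tested between A3 and Aal. Its values were 4.36 and 5.19 FPKM in Aal, 1.07, 1.34 and 1.55 FPKM in A1 and 0.752, 0.852 and 0.620 FPKM in A3, and no groups overlapped. The log2 difference was -1.32 from Aal to A1 (SE 0.15, adjusted p = 0.000571) and -1.73 from Aal to A3 (SE 0.14, adjusted p = 3.4e-05). Between A3 and Aal, Itga9 passed the filter only through Aal, where it was high. Itga5, the fibronectin receptor chain and named here after its values were seen, had the opposite sign. It lay at 0.556 and 0.481 FPKM in Aal and between 1.03 and 1.91 FPKM in the other 6 libraries, with a log2 difference of 0.81 to A1 (SE 0.13, adjusted p = 0.00242) that missed the fold threshold. In each comparison with Aal, Itga5 passed the filter only through the other group, where it was high. Itgb3, the beta 3 chain of the vitronectin receptor and also outside the rule for named genes, lay between 6.70 and 10.7 FPKM and had log2 differences of 0.02 to A1 and -0.04 to A3.

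Collagens were the largest family, with 18 members including Col4a3bp. Their sum was 85.6 and 87.8 FPKM in Aal, 73.6 to 81.1 FPKM in A1 and 55.8 to 59.2 FPKM in A3, with no overlap. Between A1 and Aal, 14 were tested, 0 were called higher and 2 lower, against 4.19 and 4.97% of all genes. Between A3 and Aal, 13 were tested, 0 were called higher and 5 lower, against 7.87 and 9.69% of all genes, with a median log2 difference of -0.61. Among the lower ones, Col28a1 passed the filter only through Aal in both comparisons, and Col6a4 did so between A3 and Aal. Col5a1, the most abundant chain, lay at 31.3 and 30.7 FPKM in Aal and at 24.8, 23.2 and 26 FPKM in A3 (log2 difference -0.32, SE 0.08, adjusted p = 0.00823), and was not called.

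Col25a1, a transmembrane collagen (chr3:129883809-130302795), lay at 5.01 and 4.92 FPKM in Aal, at 2.00, 1.63 and 1.68 FPKM in A1 and at 1.31, 1.00 and 0.879 FPKM in A3. The groups did not overlap. Its log2 difference was -1.11 from Aal to A1 (SE 0.13, adjusted p = 0.000602) and -1.54 from Aal to A3 (SE 0.14, adjusted p = 6.02e-05). Col28a1, which encodes a minor collagen with von Willebrand factor domains (chr6:7947808-8142617), followed the same steps from 2.56 and 3.22 FPKM in Aal through 0.631, 0.718 and 0.789 FPKM in A1 to 0.424, 0.264 and 0.187 FPKM in A3. The log2 difference was -1.18 from Aal to A1 (SE 0.14, adjusted p = 0.000613) and -1.59 from Aal to A3 (SE 0.14, adjusted p = 5.64e-05).

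Collagen VI forms beaded filaments around cells, from trimers of the Col6a1 and Col6a2 chains with a further chain. Col6a1 (chr10:76171537-76188913) and Col6a2 (chr10:76058507-76086375) are neighbours on the minus strand of mm9. Col6a2 lay at 4.21 and 3.3 FPKM in Aal, at 5.76, 6.61 and 7.83 FPKM in A1 and at 1.62, 2.43 and 2.32 FPKM in A3. All A1 libraries were above Aal and all A3 libraries below it. Col6a2 fell from A1 to A3 by 1.31 on the log2 scale (SE 0.15, adjusted p = 0.00188), and leaving out A1-2, A3-2 or A3-3 gave an adjusted p of 0.0124, 0.0105 or 0.0102. From Aal to A1 its log2 difference was 0.70 (adjusted p = 0.0105), which was not called.

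Col6a1 lay at 4.11 and 3.63 FPKM in Aal, at 2.66, 1.95 and 9.29 FPKM in A1 and at 0.770, 1.25 and 0.876 FPKM in A3. A1-3 was above every other library, while A1-1 and A1-2 lay between Aal and A3. From Aal to A3 the log2 difference was -1.32 (SE 0.15, adjusted p = 0.00017), with an adjusted p of 0.0273 in 1 fit on all 8 libraries. From A1 to A3 it was -1.30 (adjusted p = 0.0696), and -0.75 without A1-3 (adjusted p = 0.0194). Col6a4, an alternative partner chain (chr9:105891785-105999114), lay at 3.33 and 3.99 FPKM in Aal, at 1.77, 1.76 and 1.82 FPKM in A1 and at 0.930, 0.565 and 0.841 FPKM in A3. The groups did not overlap, A1-3 was close to the other A1 libraries, and the log2 difference from Aal to A3 was -1.39 (SE 0.15, adjusted p = 0.000122). Col9a3, a chain of a collagen that coats cartilage fibrils (chr2:180332495-180356894), lay at 3.74 and 4.18 FPKM in Aal and at 1.78, 1.29 and 1.39 FPKM in A3. Its log2 difference of -1.0 (SE 0.14, adjusted p = 0.00051) was at the fold threshold, and it was -0.94 without Aal-2 or A3-2 and -0.97 without A3-3 or with the replicate number as a block, so that it was not called there.

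Laminins are the other main basement membrane component. Lama3 led the 4 members at a mean of 5.00 FPKM. It lay between 4.96 and 6.38 FPKM in Aal and A1 and between 3.49 and 3.85 FPKM in A3, below every other library, with a log2 difference from Aal to A3 of -0.51 (SE 0.14, adjusted p = 0.0132). No laminin was called.

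Fbln2, a matrix glycoprotein that bridges basement membranes and elastic fibres (chr6:91162449-91222534), was 1 of the 2 members called higher in A1. It lay at 0.268 and 0.480 FPKM in Aal, at 2.67, 2.5 and 2.07 FPKM in A1 and at 1.00, 1.17 and 1.57 FPKM in A3. The 3 groups did not overlap, and A1 was the highest. The log2 difference was 1.31 from Aal to A1 (SE 0.15, adjusted p = 0.000539), then -0.61 from A1 to A3 (SE 0.14, adjusted p = 0.0223), and 0.71 from Aal to A3 (SE 0.15, adjusted p = 0.00415). In each comparison with Aal, Fbln2 passed the filter only through the other group, where it was high. Thbs4, the thrombospondin with the highest mean, lay at 1.03 and 0.734 FPKM in Aal and between 1.40 and 2.05 FPKM in the other libraries, with a log2 difference to A1 of 0.58 (adjusted p = 0.015).

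The other member called higher in A1 was Adamtsl5, which encodes a secreted protein related to the Adamts proteases but without their catalytic domain (chr10:79801855-79811157). It lay at 0.0814 and 0.0560 FPKM in Aal, at 0.842, 1.78 and 1.51 FPKM in A1 and at 1.69, 2.56 and 3.61 FPKM in A3. Aal did not overlap the rest, while A1 and A3 overlapped. Its log2 difference was 1.13 from Aal to A1 (SE 0.19, adjusted p = 0.00294) and 1.73 from Aal to A3 (SE 0.21, adjusted p = 0.000246). Against Aal it passed the filter only through A1 or A3, where it was high. Without A1-2 or A1-3 it did not pass the filter between A1 and Aal. Its lowest value rested on 5 reads.

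Among the proteases, Adamts10 was the highest Adamts gene at 6.49 FPKM and lay at 9.87 and 8.92 FPKM in Aal and between 4.44 and 6.50 FPKM elsewhere (log2 difference to A3 -0.71, SE 0.15, adjusted p = 0.00346). All 5 Adam genes were too low to be tested, the highest being Adam12 at 0.697 FPKM. Mmp11 led the Mmp genes at 8.84 FPKM, with a log2 difference to A3 of 0.23 (adjusted p = 0.126). Mmp17, a protease tethered to the membrane by a lipid anchor (chr5:130090089-130114086), lay at 1.54 and 1.79 FPKM in Aal, at 3.35, 3.40 and 2.54 FPKM in A1 and at 4.30, 6.76 and 7.42 FPKM in A3. The groups did not overlap, and A1-3 was the lowest of its group. The log2 difference from Aal to A3 was 1.40 (SE 0.20, adjusted p = 0.000576).

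Timp2 and Timp3 inhibit these proteases. Timp2 (chr11:118162383-118217054) lay at 2.15 and 2.81 FPKM in Aal, at 2.75, 2.86 and 17.1 FPKM in A1 and at 10.8, 7.05 and 5.60 FPKM in A3. A1-3 was the highest of all libraries, and A1-1 and A1-2 were near Aal. From Aal to A1 the log2 difference was 0.88 (adjusted p = 0.318), and 0.14 without A1-3 (adjusted p = 0.529). From A1 to A3 it was 0.42 (adjusted p = 0.671), and 1.17 without A1-3 (adjusted p = 0.012), which was not called. The log2 difference from Aal to A3 was 1.3 (SE 0.23, adjusted p = 0.00169). The adjusted p was 0.0209 without Aal-1, 0.0105 without Aal-2 and 0.0887 in 1 fit on all 8 libraries. Timp3 lay at 1.05 and 0.842 FPKM in Aal, at 1.54, 1.74 and 4.98 FPKM in A1 and at 3.43, 2.76 and 2.38 FPKM in A3. From Aal to A1 its log2 difference was 0.83 (adjusted p = 0.101), and 0.44 without A1-3 (adjusted p = 0.0344). From Aal to A3 it was 0.98 (SE 0.15, adjusted p = 0.000874), just under the fold threshold. With the replicate number as a block, which takes A3-3 out of this difference, Timp3 was called (1.07, adjusted p = 0.00149).

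Tetraspanins organise integrins and other receptors in the membrane. Tspan33, the highest of the 5, lay at 19.2 and 21.3 FPKM in Aal and between 11.1 and 16.2 FPKM elsewhere, with log2 differences of -0.56 to A1 (adjusted p = 0.0188) and -0.43 to A3 (adjusted p = 0.00462). No tetraspanin was called.

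Among the 18 called members, annotated genes overlapped several in the mm9 annotation, and the use of strand in counting was not stated in the sources used here. On the opposite strand, Cdh23 overlaps 4632428N05Rik and Gm17455, Col9a3 overlaps Tcfl5, Pcdh1 overlaps 2010320O07Rik, Itga9 overlaps Gm10157 and Gm2415, and Cdh4 overlaps Gm14300. On the same strand, Timp2 overlaps BC100451, Cdh4 overlaps Gm10711 and Mmp17 overlaps AC114657.1. Cdh13, Col25a1 and Col6a4 overlap genes of small RNAs. Reads of such pairs may not be told apart.

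Promoter windows from RefSeq (GRCm38.p6, a later build than the mm9 of the files) were matched for 65 of the 100 members and for 11 of the 18 called ones. Of the latter, 4 have a window at the outermost start of the gene, and the 250 bases before that start are shown for them: the paired collagen VI chains, of which Col6a1 fell from Aal to A3 and Col6a2 from A1 to A3, and Gja1 and Timp2, which rose from Aal to A3. The windows are chr10:76726045-76726294 (minus strand) for Col6a1, chr10:76623631-76623880 (minus) for Col6a2, chr10:56377050-56377299 (plus) for Gja1 and chr11:118355412-118355661 (minus) for Timp2. Capitals mark GGGCGG, the core of a GC box, and TGAGTCA, the AP-1 motif, on either strand (CCGCCC and TGACTCA on the other).
Col6a1: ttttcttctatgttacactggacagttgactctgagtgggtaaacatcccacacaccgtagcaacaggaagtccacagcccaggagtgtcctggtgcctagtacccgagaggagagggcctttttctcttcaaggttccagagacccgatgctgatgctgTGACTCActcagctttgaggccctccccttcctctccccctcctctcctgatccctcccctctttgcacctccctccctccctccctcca
Col6a2: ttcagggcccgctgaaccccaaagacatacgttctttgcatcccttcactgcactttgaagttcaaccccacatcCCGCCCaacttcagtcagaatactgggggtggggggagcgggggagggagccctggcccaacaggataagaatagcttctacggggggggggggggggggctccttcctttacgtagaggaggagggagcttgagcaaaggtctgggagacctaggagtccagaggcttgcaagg
Gja1: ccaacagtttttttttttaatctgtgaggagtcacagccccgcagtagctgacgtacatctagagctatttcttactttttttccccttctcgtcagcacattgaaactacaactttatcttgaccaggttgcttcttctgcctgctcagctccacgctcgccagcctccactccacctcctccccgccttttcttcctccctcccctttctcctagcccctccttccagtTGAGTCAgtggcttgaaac
Timp2: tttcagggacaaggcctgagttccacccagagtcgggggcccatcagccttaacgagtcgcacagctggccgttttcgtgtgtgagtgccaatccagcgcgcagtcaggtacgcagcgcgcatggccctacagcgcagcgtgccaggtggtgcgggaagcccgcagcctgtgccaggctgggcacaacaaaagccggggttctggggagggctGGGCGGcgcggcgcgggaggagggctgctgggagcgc

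Each of these 4 windows held 1 of the motifs. TGAGTCA began 19 bases before the start of Gja1, and its reverse complement began 90 bases before that of Col6a1. GGGCGG began 37 bases before the start of Timp2, and its reverse complement 175 bases before that of Col6a2. Over all 32851 windows of this length, 4.46% held TGAGTCA and 32.7% held GGGCGG, against 7.04 and 57.7% of the 71 windows of members. The RA receptor half-site AGGTCA, held by 14.0% of all windows and 11.3% of those of members, was not in these 4, nor was TATAAA (12.4 and 9.86%). Among the other called members with a window, Adamtsl5 held 2 copies of AGGTCA, more than any other called member. Motif matches describe letters only, and no binding was measured.

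The 40 members tested in no comparison were read from the recovered reads instead. In an alternative added after the data were seen, limma voom was run on all genes with at least 10 reads in at least 2 of the libraries compared. It called 15 of 98 members between A1 and Aal (15.3%, against 13.5% of all genes), of which 4 were higher and 11 lower (6.09 and 7.43% of all genes). It called 7 of 100 between A3 and A1 (7.0%, against 3.77%), of which 2 were higher and 5 lower (1.07 and 2.71%), and 38 of 99 between A3 and Aal (38.4%, against 25.5%), of which 14 were higher and 24 lower (11.7 and 13.8%). Among the 40 low members, 3 were called higher and 6 lower in some comparison. From Aal to A1, 3 of 38 were called (7.89%), against 7.32% of the 888 genes that voom tested here and the filter on FPKM left out of every comparison. From A1 to A3 it was 1 of 40 (2.5%, against 1.39%) and from Aal to A3 8 of 39 (20.5%, against 24.6%). Itga4, the alpha 4 chain that binds fibronectin and Vcam1, lay at 0.653 and 0.506 FPKM in Aal and between 0.113 and 0.209 FPKM in the other 6 libraries, and its log2 difference on this scale was -1.67 to A1 (adjusted p = 0.00138) and -1.91 to A3 (adjusted p = 0.000342). Pcdh12, a protocadherin of endothelial cells, and Col24a1, a fibril collagen, were also called lower in both. Gjc3, Thbs2 and Col6a5 were called lower from Aal to A3, and Cldn4 and Cdh22 were called higher. Adam5, a sperm-surface protein gene, was called higher from A1 to A3, from at most 0.0350 FPKM to at least 0.169 FPKM.

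A1-3 was over 2 times the higher of A1-1 and A1-2 for 15 members (15.0%), against 299 of all genes (5.21%). Within its group, the same rule gave 0 members for A1-1 and for A1-2 (1.22 and 0.244% of all genes). It gave 1 to 2 members for each A3 library (0.331 to 1.41% of all genes). For Aal-1 and Aal-2 it gave 6 and 2 members (3.5 and 1.94% of all genes). There each library was compared with only 1 other, which is easier to exceed. The ratio for the 15 ranged from 2.27 to 8.59, and for 11 of them A1-3 was the highest of the 8 libraries. They fall into a pair of patterns, named here after their values were seen.

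In 9 of the 15, all A3 libraries were also above A1-1 and A1-2: Timp2, Timp3, Gja1, Gja6, Cdh23, Mmp14, Tspan17, Tspan12 and Col4a3. The summed Sertoli markers had this pattern too. Mmp14, a membrane protease that activates other Mmp enzymes, lay at 3.64 and 3.26 FPKM in Aal, at 2.07, 1.58 and 6.82 FPKM in A1 and at 4.32, 3.60 and 3.12 FPKM in A3. Its log2 difference from Aal to A1 was -0.17 (adjusted p = 0.792), and -0.66 without A1-3 (adjusted p = 0.00699), under the fold threshold. Tspan17 lay at 2.74 and 2.00 FPKM in Aal, at 3.73, 2.02 and 8.47 FPKM in A1 and at 8.68, 4.37 and 3.87 FPKM in A3. Its log2 difference from Aal to A1 was 0.62 (adjusted p = 0.293), and 0.18 without A1-3 (adjusted p = 0.559). From Aal to A3 it was 0.92 (adjusted p = 0.0225). With the replicate number as a block, which takes A3-3 out of this difference, Tspan17 was called (1.11, adjusted p = 0.00216). Timp2, Timp3, Cdh23, Mmp14, Tspan17, Gja1 and Gja6 all had A3-1 as the highest and A3-3 as the lowest A3 library, as the Sertoli markers did. So did some members that were not raised in A1-3, such as Cdh5, Col25a1 and Col28a1.

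In the remaining 6, Lama2, Lamc3, Adamts5, Adamts12, Col6a1 and Col15a1, A3 was not above both A1-1 and A1-2. Lama2, the laminin alpha 2 chain, and Adamts5 were not tested and are named after their values were seen. Lama2 lay at 3.85 FPKM in A1-3 and between 0.279 and 0.657 FPKM in the other 7 libraries. Adamts5, which cleaves aggrecan, lay at 2.41 FPKM in A1-3 and between 0.0977 and 0.363 FPKM elsewhere. Col15a1, a collagen next to basement membranes, lay at 0.638 and 0.562 FPKM in Aal, at 1.05, 0.847 and 2.63 FPKM in A1 and at 0.982, 1.55 and 1.55 FPKM in A3, with a log2 difference from Aal to A3 of 0.55 (adjusted p = 0.0137). A3-2 and A3-3 were thus also above A1-1, A1-2 and Aal for Col15a1. Between A3 and Aal, Col15a1 passed the filter only through A3. From A1 to A3 the log2 difference of Col15a1 was -0.03 (adjusted p = 0.949), and 0.27 without A1-3 (adjusted p = 0.305). The summed stroma markers were high in A1-3 alone.

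**Figure D4:**
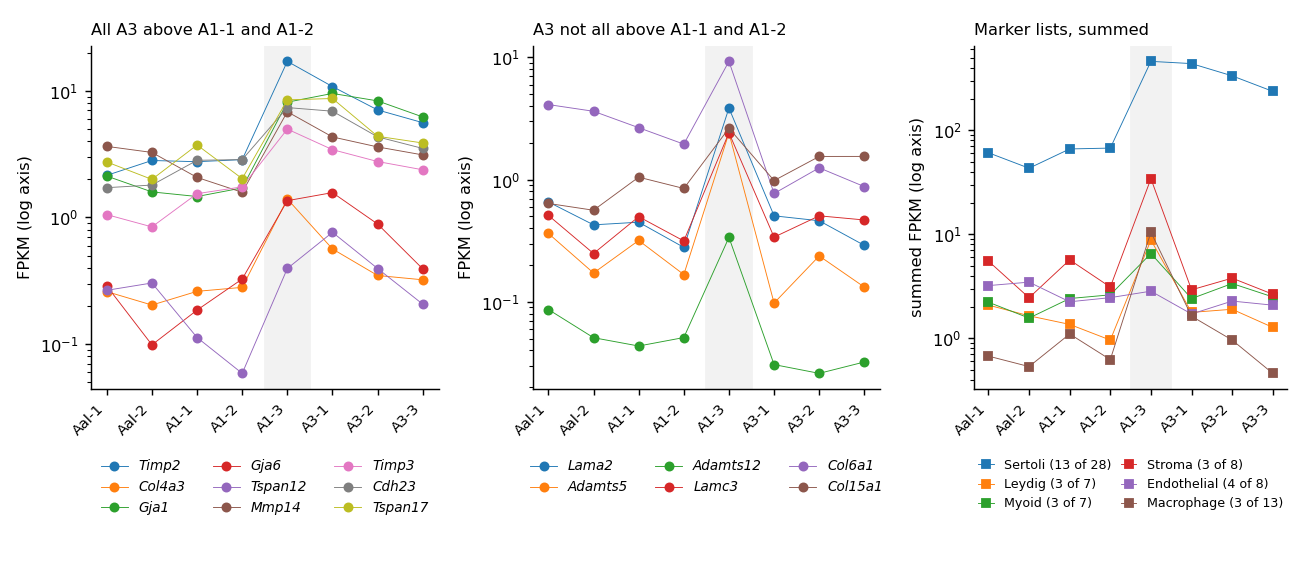
FPKM by library on log axes for the 15 members over 2 times higher in A1-3 (shaded) than in A1-1 and A1-2, split by whether all A3 libraries also exceed A1-1 and A1-2, beside the summed FPKM of 6 somatic marker lists (markers in the table of those listed). Thin lines only join the points of 1 gene or list; in the left panel A3 lies above A1-1 and A1-2, though for Mmp14 and Tspan12 it overlaps Aal, and in the middle panel A1-3 is the highest library.

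Of the 5 members called higher in A3 than in Aal, Gja1, Timp2 and Cdh23 therefore moved with the Sertoli markers, of which 9 were called higher in the same comparison. Since every A3 library was high for these markers and both Aal libraries were low, a change within germ cells and a change in Sertoli RNA cannot be told apart here. In bulk samples, fewer cells of a type and less RNA per cell also cannot be told apart. Mmp17 and Adamtsl5, the other 2, were not raised in A1-3 and ran from lowest in A3-1 to highest in A3-3, the reverse of the Sertoli markers. The order of the A3 libraries does not separate genes by itself. Pcolce and Bmp1, outside the members and highest in A1-3, had the order of Mmp17. Cdh5, Col25a1 and Col28a1, called lower in A3 than in Aal, had the order of the Sertoli markers. Of the 10 members called lower in A3 than in Aal, only Col6a1 was raised over 2 times in A1-3. Without A1-3, 6 members were called between A1 and Aal, with Adamtsl5 not tested (9.7% of all genes): Fbln2 was higher (4.36%) and 5 members were lower (5.33%). Between A3 and A1, 3 were called (2.45%), Gja1 higher (1.35%) and Nectin1 and Col6a2 lower (1.1%).

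Other adhesion and matrix genes were taken from lists of matrix glycoproteins, collagen maturation enzymes, further adhesion receptors, CD tetraspanins, proteins that link integrins to actin and further junction proteins. Of 116 listed genes, 39 were in the table. From Aal to A1, 29 were tested, 2 were called higher and 2 lower, against 4.19 and 4.97% of all genes. From A1 to A3, 30 were tested, 0 were called higher and 1 lower, against 0.479 and 1.02%. From Aal to A3, 29 were tested, 6 were called higher and 5 lower, against 7.87 and 9.69%, with a median log2 difference of -0.00.

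Of the matrix glycoproteins, 13 were tested from Aal to A1, with a median log2 difference of 0.19, and 3 were called. Of these, 1 was higher and 2 were lower, against 4.19 and 4.97% of all genes. Spp1, which encodes osteopontin, a ligand of Itga9 integrin, lay at 0.674 and 0.504 FPKM in Aal, at 6.38, 12.5 and 15.4 FPKM in A1 and at 3.06, 6.34 and 6.00 FPKM in A3. All A1 and A3 libraries were above Aal, and the log2 difference from Aal to A1 was 2.89 (SE 0.31, adjusted p = 0.000484), or 2.65 without A1-3. In this comparison Spp1 passed the filter only through A1, where it was high. Nid1, the nidogen that ties laminin to collagen IV, lay at 17.5 and 19.99 FPKM in Aal, between 5.80 and 9.67 FPKM in A1 and between 4.90 and 5.23 FPKM in A3 (log2 difference to A1 -1.21, adjusted p = 0.0019, or -1.37 without A1-3). Smoc2, a calcium-binding matricellular protein, lay at 27.1 and 30.8 FPKM in Aal and between 8.34 and 12 FPKM in the other 6 libraries (log2 difference to A1 -1.37, adjusted p = 0.000591, or -1.45 without A1-3). Ltbp1, which stores latent TGF-beta in the matrix, was called lower from Aal to A3 (log2 difference -1.78, adjusted p = 0.000178).

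Sparc, a matricellular protein, was called higher from Aal to A3 (log2 difference 2.17, adjusted p = 0.000257) and lay at 75.2 FPKM in A1-3 against 9.63 and 9.98 FPKM in A1-1 and A1-2. Pcolce, which speeds procollagen processing, was called higher too (1.3, adjusted p = 0.000175) and lay at 12.1 FPKM in A1-3 against 2.74 and 2.43 FPKM. Bmp1, the procollagen C-proteinase, was called higher from Aal to A3 (1.15, adjusted p = 0.00227), but passed the filter there only through A3. These 3 were also highest in A1-3.

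Among junction proteins, Cgn, the tight junction scaffold cingulin, lay at 10.6 and 7.10 FPKM in Aal, between 23.9 and 31.8 FPKM in A1 and between 29.1 and 32.6 FPKM in A3, with a log2 difference to A1 of 1.52 (SE 0.18, adjusted p = 0.000611), or 1.40 without A1-3. Ocln, the membrane protein occludin of the same junction, went the other way, from 12 and 14.6 FPKM in Aal to between 3.90 and 5.95 FPKM in A3 (log2 difference -1.34, adjusted p = 0.000322). Igsf8, an immunoglobulin partner of tetraspanins, lay between 28.7 and 37.9 FPKM in Aal and A1 and between 15.2 and 16.0 FPKM in A3, and was the 1 listed gene called from A1 to A3 (log2 difference -1.03, SE 0.10, adjusted p = 0.000969). Bcam, a laminin receptor, was called higher from Aal to A3 (1.51, adjusted p = 0.000301), but passed the filter there only through A3. None of the 6 integrin linkage genes in the table was called, and none of the 10 CD tetraspanins was in it.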

How the data were processed

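Messenger RNA of 8 libraries (TruSeq Stranded mRNA, single-end reads) was processed by the authors, who trimmed reads with cutadapt 1.9, aligned them to mm9 with STAR 2.5.2b, assigned them to genes with featureCounts and tested counts with DESeq2. The deposited values are FPKM, fragments scaled for gene length and library size. The annotation, the strand setting and how FPKM was computed are not given in the sources used here.

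Groups came from the sample titles. The members and all lists were chosen with earlier results of these data known. FPKM steps were turned back into whole reads (all 5736 genes; 100% of values rebuilt within a relative 1e-05, whole within 0.01). The main test was limma 3.58.1 (R 4.3.3; lmFit, eBayes with a trend, two-sided, Benjamini-Hochberg over all genes tested) on log2(FPKM + 1) for each pair of groups, with the filter and thresholds given in the report. Count models were not the main test because the deposited unit is FPKM. Named with values were all called members, the most abundant member of each family, tested members over 2 times higher in A1-3 than in the other A1 libraries, and called genes of the other lists. Genes named outside this rule are marked, and the lowly expressed members called by voom were named after their values were seen. Positions came from the GENCODE M1 annotation of mm9 (99 members found). Scripts were tested on simulated data. Alternatives covered the pseudocount, filters, scaling, 1 fit on all libraries, thresholds, voom, a replicate block and leaving out each library.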

Additional observations from a re-analysis of the deposited data

How the results depend on the processing

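The 24 called differences of members were recomputed under the alternatives, which gave 324 values. Of these, 298 kept direction and call, 26 kept direction but lost the call and 0 changed sign. The alternatives with an adjusted p of at most 0.05 or without a fold threshold only loosened the rule on the main fit. They could not lose a call, and their values are among the 298. Where a member did not pass the filter of an alternative there was no value, and this was not counted as a lost call. Of the 26, 12 came from fits with 1 Aal library, whose spread was assumed to be that of the other group. The counts of members called were 7 (A1 against Aal), 2 (A3 against A1) and 15 (A3 against Aal), and leaving out 1 library gave 1 to 8, 0 to 3 and 6 to 16. With at least 5 FPKM they were 0, 1 and 3, since few members are that high. With voom on the recovered reads they were 11, 6 and 29, and with voom and at least 10 reads in 2 libraries, an alternative chosen after the data were seen, 15, 7 and 38. Without a fold threshold they were 15, 4 and 33, and with a pseudocount of 0.1 they were 9, 3 and 26. Beside the main fit, shares over all genes are given only for voom with at least 10 reads and for the fits without A1-3. The counts under the other alternatives, the replicate block included, cannot be set against all genes here and describe the rule as well as the members.

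Replicate numbers are shared by the groups, but same-numbered libraries did not deviate together: the correlation across genes was -0.107, 0.022 and -0.323 for A1 with A3, -0.153 and 0.012 for Aal with A1, and 0.045 and -0.025 for Aal with A3. A fit with the replicate number as a block called 7, 1 and 16 members. It lost Nectin1 from A1 to A3 and Col9a3 from Aal to A3, and gained Timp3 and Tspan17 from Aal to A3. Aal has no replicate 3, so against Aal this fit gave the same log2 differences as without A1-3 or A3-3. For their size it is not a separate check from leaving that library out.

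Differences that changed sign were uncalled in the main fit. With the replicate block, Gja1 from Aal to A1 was -0.14, the value it also had without A1-3. From A1 to A3, voom gave 0.10 for Col15a1 in both versions. Leaving out 1 library moved the log2 difference from Aal to A1 over -0.14 to 0.81 for Gja1, -0.57 to 0.34 for Col6a1 and -0.66 to 0.14 for Mmp14. From A1 to A3 it ran over -0.024 to 0.58 for Cdh23, -0.22 to 0.27 for Col15a1, -0.075 to 0.73 for Mmp14, -0.080 to 0.54 for Timp3 and -0.082 to 0.74 for Tspan17, and from Aal to A3 over -0.030 to 0.15 for Mmp14. The cause was not tested.

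Low depth is 1 limit: with a median of 99.5 reads and 40 members under the filter, small changes of the weaker genes were not detectable.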
